A study of Mus musculus with 6 samples.

Results

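Cd180, Ly86, Tlr1, Tlr2, Tlr4, Tlr6, Tlr7, Cd14 and Ly96 encode Toll-like receptors, the related receptor CD180 and the partner proteins of both. They were taken by gene name, 9 of 12008 genes with enough reads to be tested, and followed through all 6 libraries of long-term haematopoietic stem cells (LT-HSC) from Itpkb-/- and wild-type mice. The set was chosen by gene family and on values already seen, the difference in normalized CPM between these same Itpkb-/- and wild-type libraries. Its tests between genotypes are therefore a description and not independent support. Itpkb encodes inositol-trisphosphate 3-kinase B, which turns inositol trisphosphate into inositol tetrakisphosphate. The Itpkb-/- mice carried, on a C57BL/6 background, the allele that the labels call ENU-induced Ms T-less. The wild-type mice, also C57BL/6, were litter mate controls of the same age. Their age and any other treatment are not given in the sources used here. In both genotypes, Lin- bone marrow cells were sorted as LSK CD34-CD150+CD48-Flk2-, and each of the 3 libraries per genotype came from at least 10000 cells of 4 pooled mice. The allele is carried by the whole animal, so the stem cells had developed in an Itpkb-/- body.

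Toll-like receptors are membrane proteins that bind microbial molecules through leucine-rich repeats and signal through a cytoplasmic TIR domain. Lipopolysaccharide is passed by CD14 to TLR4, which binds it together with the small secreted protein MD-2, the product of Ly96. TLR2 reads bacterial lipopeptides as a dimer with TLR1 or with TLR6, and TLR7 reads single-stranded RNA in endosomes. CD180, also called RP105, has leucine-rich repeats like those of TLR4 but no TIR domain, and it reaches the cell surface with MD-1, the product of Ly86. It is best known from B cells, where it drives proliferation, and from myeloid cells, where it restrains TLR4. Haematopoietic stem and progenitor cells carry some of these receptors and can respond to their ligands directly.

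Promoter sequences of 3 members are given here, and their relation to the values was not tested. The regions just upstream of the RefSeq start sites (build GRCm38.p6) of Cd180, Tlr1 and Tlr6 are shown because these were the receptor genes among the members with an entry whose Itpkb-/- libraries all lay above the wild-type libraries. Each is 250 bases long and ends at the base before the start site. Capitals mark matches to any of 5 motifs searched on both strands.
Cd180, chr13:102693308-102693557, plus strand: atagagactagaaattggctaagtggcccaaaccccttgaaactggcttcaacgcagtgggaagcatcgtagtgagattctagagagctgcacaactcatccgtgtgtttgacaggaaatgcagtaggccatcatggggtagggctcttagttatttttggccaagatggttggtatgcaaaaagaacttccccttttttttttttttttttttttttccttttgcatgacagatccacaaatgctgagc
Tlr1, chr5:64933559-64933808, minus strand: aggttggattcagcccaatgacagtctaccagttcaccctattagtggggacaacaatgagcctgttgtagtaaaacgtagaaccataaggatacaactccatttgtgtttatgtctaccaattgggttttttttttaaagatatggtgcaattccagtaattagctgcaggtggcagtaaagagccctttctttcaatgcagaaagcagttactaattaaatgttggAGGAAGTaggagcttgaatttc
Tlr6, chr5:64959167-64959416, minus strand: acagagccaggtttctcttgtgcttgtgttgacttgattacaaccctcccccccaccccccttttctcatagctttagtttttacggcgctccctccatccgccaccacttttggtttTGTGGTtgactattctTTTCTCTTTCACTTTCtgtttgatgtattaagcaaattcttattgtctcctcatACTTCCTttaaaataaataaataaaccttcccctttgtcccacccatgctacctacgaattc
The motifs were AGGAAGT (bound by PU.1 and other ETS factors, in 7.69% of 32851 promoter windows of this length), GGG and CC with 5 bases between them (NF-kB, 45.8%), GAAA and GAAA with 2 bases between them (IRF factors, 2.98%), TGANTCA (AP-1, 6.75%) and TGTGGT (Runx factors, 14%). The Cd180 window held none of the 5, nor did that of its second listed start site or the window of Ly86. Tlr1 held AGGAAGT 22 bases upstream of its start. Tlr6 held the same motif on the other strand, ACTTCCT, 62 bases upstream. Its capitals further upstream are TGTGGT at 132 bases and a pair of overlapping IRF matches at 116 and 110 bases. Tlr2 held a pair of overlapping NF-kB matches, at 173 and 172 bases. RefSeq also gives second start sites for Tlr1 and Tlr6. The window of the second Tlr1 start held no match, and that of the second Tlr6 start held an NF-kB match at 99 bases. In all, 5 of the 9 members had a promoter entry. A match is a string of letters and says nothing on whether a factor binds.

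Tlr1 and Tlr6 are neighbours on chromosome 5 and share long identical stretches, so the division of reads between them is uncertain. Of the 50-base windows of the Tlr1 coding sequence, 454 of 2336 (19.4%) also occurred in Tlr6, as did 454 of 2369 (19.2%) Tlr6 windows in Tlr1. No other pair of members shared such a window. The longest identical run is 229 bases, inside the coding part of both genes on the minus strand (build mm10), and is shown because reads from it cannot be assigned to either gene. The 60 coding bases before it differ at 1 base, the last one, in capitals.
Tlr1 and Tlr6, chr5:64925537-64925765 and chr5:64953828-64954056: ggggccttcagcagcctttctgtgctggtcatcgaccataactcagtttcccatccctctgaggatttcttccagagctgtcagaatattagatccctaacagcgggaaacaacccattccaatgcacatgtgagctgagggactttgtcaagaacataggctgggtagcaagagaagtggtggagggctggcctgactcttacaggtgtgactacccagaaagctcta
Tlr1, 60 bases before the run: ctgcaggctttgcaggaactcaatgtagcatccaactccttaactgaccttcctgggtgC
Tlr6, 60 bases before the run: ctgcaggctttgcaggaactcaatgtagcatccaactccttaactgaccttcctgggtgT

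Between 4024203 and 7470329 reads per library were recovered from the table. The values are gene counts divided by 1 factor per library, which puts them on the CPM scale, and the text names them normalized CPM. Values for single libraries are given in the order 1, 2, 3 of the labels' replicate numbers. One read was worth 0.131 to 0.249 normalized CPM. A count of 0 allows up to 3 reads, 0.393 to 0.746 normalized CPM, which covers counting error only. Itpkb itself was at 10.2, 13.99 and 18.2 in the mutant and 22.1, 23.6 and 25.1 in the wild type. The Itpkb-/- libraries were all lower. The log2 difference of -0.73 missed the limit used here, an adjusted p of 0.15 in limma's test over all genes, at 0.172, and was within it when same-numbered libraries formed a block (0.0541). ENU makes point mutations, which need not remove the transcript, so this level checks the labels only in part. The sort gate genes Kit, Cd34 and Ly6a and the LT-HSC genes Hlf and Gata2 were present in every library. The gate excluded cells with CD34 on their surface, so the presence of Cd34 RNA does not check it. Of 6 sort gate genes, which include Slamf1, Cd48 and Flt3, none passed limma's test or edgeR's. With the block 2 passed as higher and 1 as lower, beside 9.15% and 8.97% of all genes tested. The 12 LT-HSC markers summed to 1565 to 2136 normalized CPM in Itpkb-/- and 2637 to 3199 in wild-type libraries. Of the 12, 5 passed the test as lower, beside 3.24% of all genes tested, and 8 with the block, beside 8.97%.

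Cd180 was the member with the highest mean level per length and the clearest difference. It rose 2.48-fold in Itpkb-/- LT-HSC, from 54.6 ± 15.1 to 135.2 ± 14.2 normalized CPM (SD, n = 3 each). Ly86, which encodes its partner MD-1, was 3.63-fold higher in the mean but varied too much between libraries to pass. The levels of both can be followed in the plot of the 9 genes by library.

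**Figure D1:**
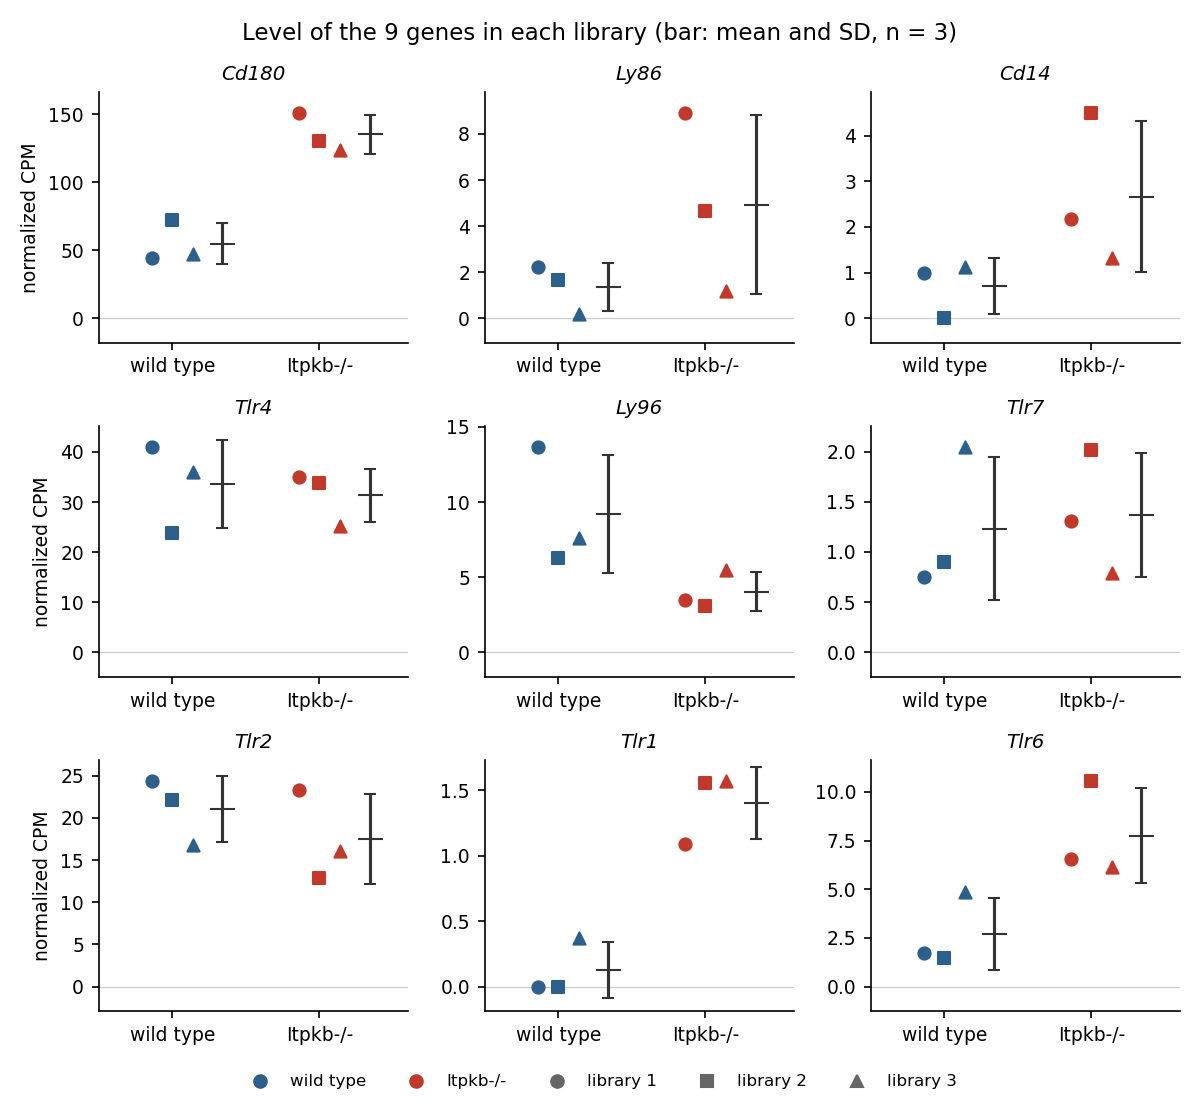
Normalized CPM (vertical axes, one scale per gene, from 0) of the 9 genes in each library, with wild-type libraries at the left and Itpkb-/- libraries at the right of each panel, and bars for the mean and SD (n = 3). The Itpkb-/- libraries lie wholly above the wild-type libraries for Cd180, Tlr1, Tlr6 and Cd14 and wholly below them for Ly96, and the genotypes overlap for the other 4 genes.

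Cd180 lies at chr13:102693558-102739629 on the plus strand (GENCODE M21, build mm10). The Itpkb-/- libraries held 151, 130.4 and 124 normalized CPM, from 694, 839 and 946 reads. The wild-type libraries held 44.5, 71.9 and 47.3, from 179, 481 and 254 reads. The lowest Itpkb-/- library lay well above the highest wild-type library. The log2 difference was 1.32 (SE 0.188), with an adjusted p of 0.00824 by limma's test across all genes. Same-numbered libraries differed by 1.74, 0.85 and 1.37 on the log2 scale, higher in Itpkb-/- cells in 3 of 3 pairs. Leaving out 1 library at a time gave differences of 1.19 to 1.53 and adjusted p of 0.0130 to 0.0785, so the call held in 6 of 6 fits. edgeR's quasi-likelihood test on the recovered reads gave an adjusted p of 0.0044. In these bulk samples, more cells that carry Cd180 and more Cd180 RNA per cell cannot be told apart. The same holds for fewer cells of a type and less RNA per cell where a gene is lower.

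A far 3' exon of the annotated Cd180 gene lies within the span of Mast4, a kinase gene on the opposite strand, and the library kit does not mark strand. For Mast4 the Itpkb-/- libraries held 87.1, 84.4 and 117 normalized CPM and the wild-type libraries 118, 122 and 126. Its log2 difference, -0.36 (adjusted p = 0.293, and 0.0802 with same-numbered libraries as a block), had the opposite sign to that of Cd180. How many Cd180 reads came from that exon was not tested.

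Ly86 (chr13:37345208-37419036, plus strand) lies on the same chromosome as Cd180. The Itpkb-/- libraries held 8.93, 4.66 and 1.18 normalized CPM (41, 30 and 9 reads) and the wild-type libraries 2.24, 1.64 and 0.186 (9, 11 and 1 reads). The genotypes overlapped, because Itpkb-/- library 3 lay below wild-type libraries 1 and 2. Library 3 was lowest in both genotypes, and within each same-numbered pair the Itpkb-/- library was higher, by 1.62, 1.1 and 0.88 on the log2 scale. The difference of 1.20 (SE 0.572) did not pass limma's test (adjusted p = 0.348) and passed with the replicate block (0.0661). Of the 6 fits without 1 library it passed in 1, without Itpkb-/- library 3 (0.122). Across these fits the adjusted p reached 0.691 and the difference ran from 0.70 to 1.79. Per kilobase of exon, Cd180 exceeded Ly86 13.6 to 84.7 times in Itpkb-/- libraries and 16 to 204.6 times in wild-type libraries, ranges that overlap.

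The values of the lipopolysaccharide receptor genes had no direction in common. Tlr4 overlapped between the genotypes, Ly96 was lower in every Itpkb-/- library than in any wild-type library, and Cd14 was higher. None of the 3 passed limma's test, with Ly96 and Cd14 at an unadjusted p under 0.05 (0.0172 and 0.0406). None was called by edgeR.

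For Tlr4 (chr4:66827584-66930284, plus strand) the Itpkb-/- libraries held 35.1, 33.7 and 25.2 normalized CPM and the wild-type libraries 41.0, 23.9 and 35.9. The libraries were interleaved. The log2 difference of -0.08 (SE 0.232, adjusted p = 0.916) changed sign without Itpkb-/- library 3 (0.07) or wild-type library 1 (0.08). The ratio of Cd180 to Tlr4, both per kilobase of exon, was 5.31, 4.76 and 6.07 in the mutant and 1.34, 3.70 and 1.62 in the wild type, with no overlap.

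Ly96 (chr1:16688051-16709611, plus strand), the gene of MD-2, held 3.49, 3.11 and 5.50 normalized CPM in the Itpkb-/- libraries. Their wild-type counterparts held 13.7, 6.28 and 7.63. Every Itpkb-/- library lay below every wild-type library, and the wild-type mean was 2.28 times the Itpkb-/- mean (9.20 ± 3.94 against 4.03 ± 1.29). The log2 difference was -0.98 (SE 0.350) with an adjusted p of 0.204, and with the replicate block the gene passed (0.0878). The ratio of Tlr4 to Ly96 per kilobase was 1.85, 1.99 and 0.840 in mutant libraries against 0.551, 0.700 and 0.865 in wild-type libraries, so that Itpkb-/- library 3 fell among the wild-type values.

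Cd14 (chromosome 18, 36725067 to 36726798, minus strand) encodes the coreceptor that hands lipopolysaccharide to TLR4 and MD-2. In the mutant it was at 2.18, 4.51 and 1.31 normalized CPM, from 10, 29 and 10 reads. Wild-type libraries 1 and 3 held 0.995 and 1.12 from 4 and 6 reads, and wild-type library 2 had 0 reads, which allows up to 0.448. The highest wild-type value lay just under the lowest Itpkb-/- value. The log2 difference of 1.09 (SE 0.468) did not pass (adjusted p = 0.298, and 0.186 with the replicate block).

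**Figure D2:**
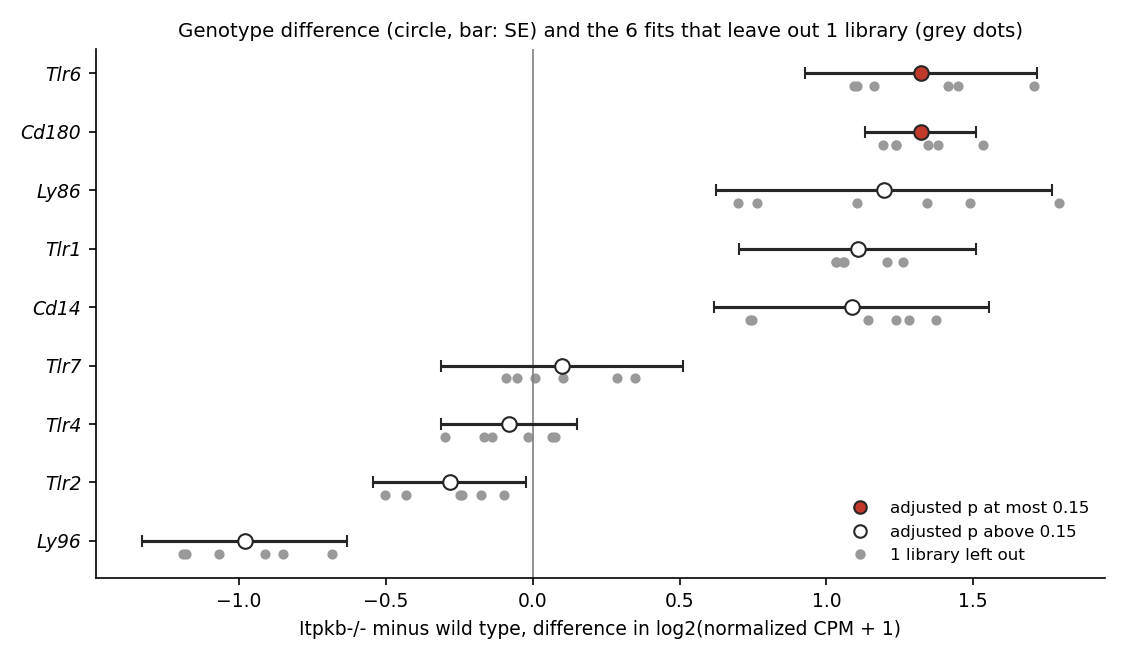
Difference between genotypes for each of the 9 genes on the log2(normalized CPM + 1) scale (horizontal axis, Itpkb-/- minus wild type), with the SE as a bar and the 6 fits that each leave out 1 library as grey dots. Filled circles passed the test at an adjusted p of at most 0.15, which were Cd180 and Tlr6, and the dots lie on both sides of 0 for Tlr4 and Tlr7.

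Among the lipopeptide receptors, Tlr6 passed the test and Tlr1 and Tlr2 did not. Tlr6 rose 2.88-fold, from 2.69 ± 1.86 to 7.75 ± 2.44 normalized CPM, a call lost whenever 1 library was left out. Tlr1 (adjusted p = 0.213) was read 27 times in the Itpkb-/- libraries together and 2 times in the wild-type libraries together. Because the paralogs share the run printed above, these values are less certain gene by gene.

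Tlr6 (chr5:64952031-64960097, minus strand) had 6.53, 10.6 and 6.16 normalized CPM in the Itpkb-/- libraries, from 30, 68 and 47 reads. Its wild-type values were 1.74, 1.49 and 4.84, from 7, 10 and 26 reads. The groups did not overlap, and wild-type library 3 came closest to the Itpkb-/- libraries. The log2 difference of 1.32 (SE 0.396) passed at an adjusted p of 0.137 (limma), with 0.0473 under the replicate block. The call is a narrow one: leaving out 1 library at a time gave adjusted p of 0.154 to 0.377, above the limit in all 6 fits. It was also lost by edgeR on reads (0.171), with no filter on low values (0.215) and in CPM without the authors' factor (0.153), and was kept by DESeq2 (0.107).

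Tlr1 (chr5:64924679-64933563, minus strand) had 1.09, 1.55 and 1.57 normalized CPM in the Itpkb-/- libraries, from 5, 10 and 12 reads. Wild-type libraries 1 and 2 had 0 reads, which allows up to 0.746 and 0.448, and wild-type library 3 had 2 reads, or 0.372. Every Itpkb-/- library lay above every wild-type library. The pooled read rates differed 11.4-fold, with an exact 95% interval of 2.86 to 98.8 that covers counting error only. Tlr1 passed the filter on low values through its Itpkb-/- libraries alone. Its log2 difference of 1.11 (SE 0.403) did not pass the test (adjusted p = 0.213) and passed with the replicate block (0.141) and with no filter on low values (0.0746).

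For Tlr2 (chr3:83836272-83841767, minus strand) the Itpkb-/- libraries held 23.3, 12.9 and 16.1 normalized CPM and the wild-type libraries 24.4, 22.1 and 16.8. The genotypes overlapped, although the Itpkb-/- library was the lower one in 3 of 3 pairs. The log2 difference was -0.28 (SE 0.260, adjusted p = 0.662). The ratio of Tlr2 to Tlr6 per kilobase was 4.41, 1.51 and 3.24 in the mutant and 17.3, 18.3 and 4.28 in the wild type. Wild-type library 3 lay within the Itpkb-/- range.

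Tlr7 (chrX:167304929-167330558, minus strand), the only endosomal receptor among the 9, was close to the limit of detection. The Itpkb-/- libraries held 1.31, 2.02 and 0.786 normalized CPM, from 6, 13 and 6 reads. In the wild type it was at 0.746, 0.897 and 2.05, from 3, 6 and 11 reads. The libraries were interleaved. The log2 difference of 0.10 (SE 0.413, adjusted p = 0.941) turned negative without Itpkb-/- library 2 (-0.09), wild-type library 1 (-0.05) or both libraries numbered 2 (-0.18). A difference between genotypes in Tlr7 was not detectable at this depth.

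All 9 members passed the filter on low values, and 2 of them, Cd180 and Tlr6, passed the test as higher. Over all 12008 genes tested, 5.50% passed, 2.27% as higher and 3.24% as lower. With the replicate block 4 members passed as higher (Cd180, Ly86, Tlr1 and Tlr6) and 1 as lower (Ly96), where 18.1% of all genes passed, 9.15% as higher and 8.97% as lower. Tlr1 is in this count although it passed the filter through its Itpkb-/- libraries alone, and 3 members passed as higher without it. edgeR called 1 member, Cd180, as higher, and 5.84% of all genes, 2.38% as higher and 3.46% as lower. For 5 members the genotypes' libraries did not overlap, 4 of them higher in Itpkb-/- cells and 1 lower, which held for 21.3% of all genes, 10.0% higher and 11.3% lower. The median log2 difference was 1.09 over the members and 0.0018 over all genes tested. Since the members were chosen with these differences known, nothing is read from their counts.

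Per kilobase of exon, the members differed widely in level. Wild-type means were 12.1 ± 3.34 normalized CPM per kilobase for Cd180, 9.01 ± 3.86 for Ly96, 6.99 ± 1.30 for Tlr2 and 6.05 ± 1.58 for Tlr4. Lower levels were found for Tlr6 (0.722 ± 0.50), Cd14 (0.406 ± 0.354), Ly86 (0.373 ± 0.291), Tlr7 (0.301 ± 0.174) and Tlr1 (0.0371 ± 0.0642). Neighbours in this order overlapped between libraries except at the step from Tlr4 to Tlr6 and from Tlr7 to Tlr1. In Itpkb-/- libraries Cd180 was again first, at 29.98 ± 3.15, ahead of Tlr2 (5.79 ± 1.77), Tlr4 (5.64 ± 0.967) and Ly96 (3.95 ± 1.26). Tlr6 followed at 2.08 ± 0.656 and the mean of Tlr1 (0.420 ± 0.0819) lay above that of Tlr7 (0.336 ± 0.152), with overlapping libraries. So in both genotypes 4 genes, Cd180, Tlr2, Tlr4 and Ly96, held the highest levels, and the genes of TLR2's partners stayed below Tlr2.

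**Figure D3:**
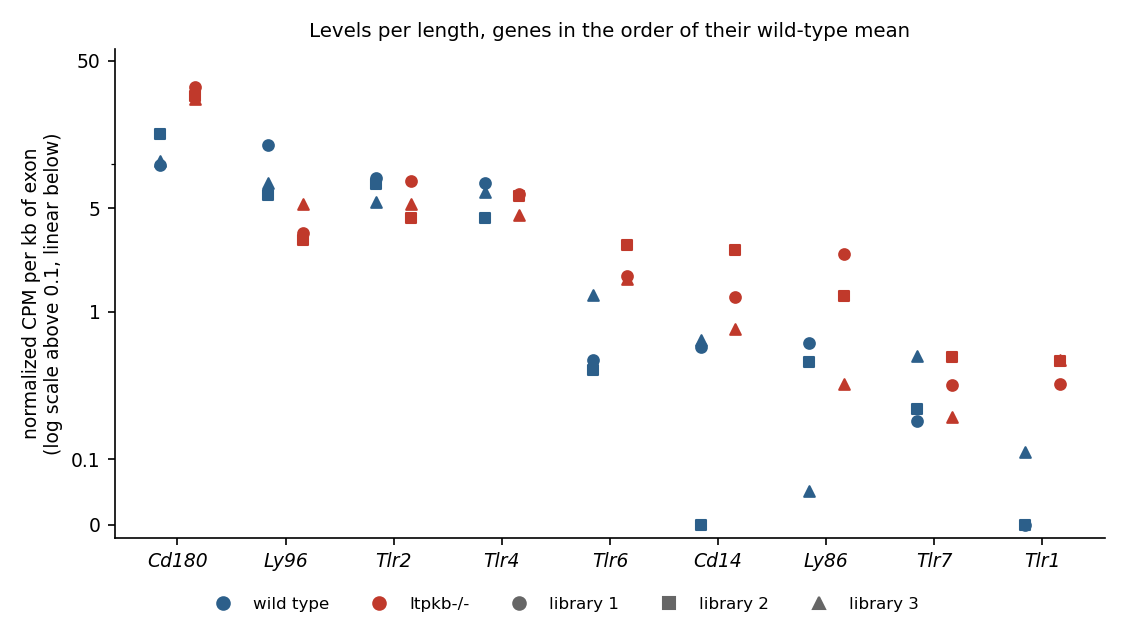
Normalized CPM per kilobase of exon (vertical axis, log scale above 0.1 and linear below it) for the 9 genes, in the order of their wild-type mean, with each library as a point. Cd180 has the highest mean in both genotypes, although Ly96 lies above it in wild-type library 1 (13.4 against 9.87). The wild-type libraries of Tlr1 lie at or near 0.

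The genes around the receptors were described from 9 lists of the Toll-like receptor pathway, 115 genes in all, of which 96 passed the filter. Of these 96, 1 passed the test, Plcg2, as higher, and 18 (18.8%) had an unadjusted p under 0.05, beside 15.5% of all 12008 genes tested. edgeR also called 1. The median log2 difference was 0.06, and 54 of the 96 differences were positive. With the replicate block 10 passed as higher and 6 as lower, 16 of 96 beside 18.1% of all genes. For each list below, the share of all genes tested with an unadjusted p under 0.05 is the same 15.5%. The shares with the block are 9.15% as higher and 8.97% as lower.

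The kinases and adaptors that act below CD180 and the B-cell receptor held the gene that passed. Plcg2, a phospholipase that makes inositol trisphosphate, held 227, 242 and 261 normalized CPM in the mutant and 168, 183 and 184 in the wild type. These groups did not overlap, and Plcg2 rose by 0.45 on the log2 scale (limma, adjusted p = 0.105). It missed the limit in 5 of the 6 fits without 1 library, at up to 0.302, and in CPM without the authors' factor (0.153). Syk, a tyrosine kinase that activates phospholipase C gamma, was at 131 ± 21.4 against 97.1 ± 11.6 (log2 difference 0.42, adjusted p = 0.221, and 0.0274 with the block). Of the 8 tested genes of this list 3 passed with the block, all higher, beside 9.15% of all genes tested. They were Plcg2, Syk and Btk, the kinase named for its part in agammaglobulinaemia. Btk was picked after its value was seen.

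Among the 5 tested TIR adaptors, none passed limma's test or edgeR's, and 1 had an unadjusted p under 0.05. That gene was Myd88, the adaptor used by nearly all Toll-like receptors. Its mutant libraries held 34.4, 37.6 and 29.1 normalized CPM and the wild-type libraries 15.9, 27.6 and 18.2, with no overlap. Its log2 difference was 0.71 (adjusted p = 0.165), and it passed with the replicate block (0.0365). Pik3ap1, which links these receptors to PI3K, had a difference of 0.29 (adjusted p = 0.663). Of 19 kinases and ubiquitin ligases none passed by limma or edgeR, with 1 at an unadjusted p under 0.05. Chuk, the kinase IKK alpha, had a log2 difference of 0.50 (adjusted p = 0.278). Ube2n, the ubiquitin-conjugating enzyme that works with TRAF6, had -0.33 (0.323) and was the 1 gene of this list to pass with the block, as lower (0.110).

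None of the 12 genes for folding and trafficking of the receptors passed by limma or edgeR, and 1 had an unadjusted p under 0.05. Cd36, a scavenger receptor that assists TLR2 with TLR6, was at 0.549 ± 0.478 against 2.47 ± 1.11 (log2 difference -1.17, adjusted p = 0.213). Rnf170, a ubiquitin ligase, had a difference of 0.46 (0.422). Cd36 passed the filter on low values through its wild-type libraries alone. With the block it passed as lower (0.105) and Hsp90b1, the chaperone of most Toll-like receptors, as higher (0.130). None of the 9 NF-kB and IRF factors passed by limma or edgeR, with 2 at an unadjusted p under 0.05. Nfkb1 had a difference of 0.32 (0.258, and 0.0868 with the block, as higher) and Irf5, a factor below TLR7, had -0.63 (0.316).

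The brakes on these receptors and their target genes were also without a call by limma or edgeR. Of 13 brakes, 4 (30.8%) had an unadjusted p under 0.05, beside 15.5% of all genes tested. Tnip1 had a log2 difference of -0.49 (adjusted p = 0.264) and Tnfaip3, the ubiquitin-editing enzyme A20, of 0.50 (0.271). With the block 2 brakes passed as higher, Ptpn6 and Fam105b, and Tnip1 passed as lower (0.0948). Over all genes tested these shares were 9.15% and 8.97%. Of 24 target genes 15 passed the filter, 5 of them with an unadjusted p under 0.05, and 2 of the 24 had no read in any library. Il1b, the gene of interleukin-1 beta, was at 4.2 ± 1.08 against 1.58 ± 0.573 (log2 difference 1.01, adjusted p = 0.192, and 0.119 with the block). Nfkbiz, an NF-kB cofactor, had a difference of -0.75 (0.231). With the block Il1b passed as higher, and Icam1, Nfkbiz and Dusp1 as lower, beside the same shares of all genes. With the block in edgeR, Il1b missed the limit (0.156) and the other 3 passed.

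The other 7 Toll-like receptor genes were at low levels. Tlr3, Tlr12 and Tlr13 passed the filter and none passed the test by limma or edgeR or with the block. Tlr3, the receptor of double-stranded RNA, was at 3.20 ± 0.375 in Itpkb-/- and 5.90 ± 0.694 in wild-type libraries, with no overlap (log2 difference -0.72, adjusted p = 0.280), and was the 1 with an unadjusted p under 0.05. Tlr13 had a difference of 0.29 (0.844). Tlr5, Tlr8 and Tlr9 stayed under the filter and Tlr11 had no read in any library. Of 12 tested sensors of other families, none passed by limma or edgeR and 1 had an unadjusted p under 0.05. It was Clec4e, a receptor of mycobacterial glycolipid, at 9.63 ± 1.97 against 4.46 ± 1.85 (log2 difference 1.01, adjusted p = 0.182, and 0.0716 with the block). Mavs, the adaptor of the RNA helicase sensors, had a difference of -0.36 (0.373).

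**Figure D4:**
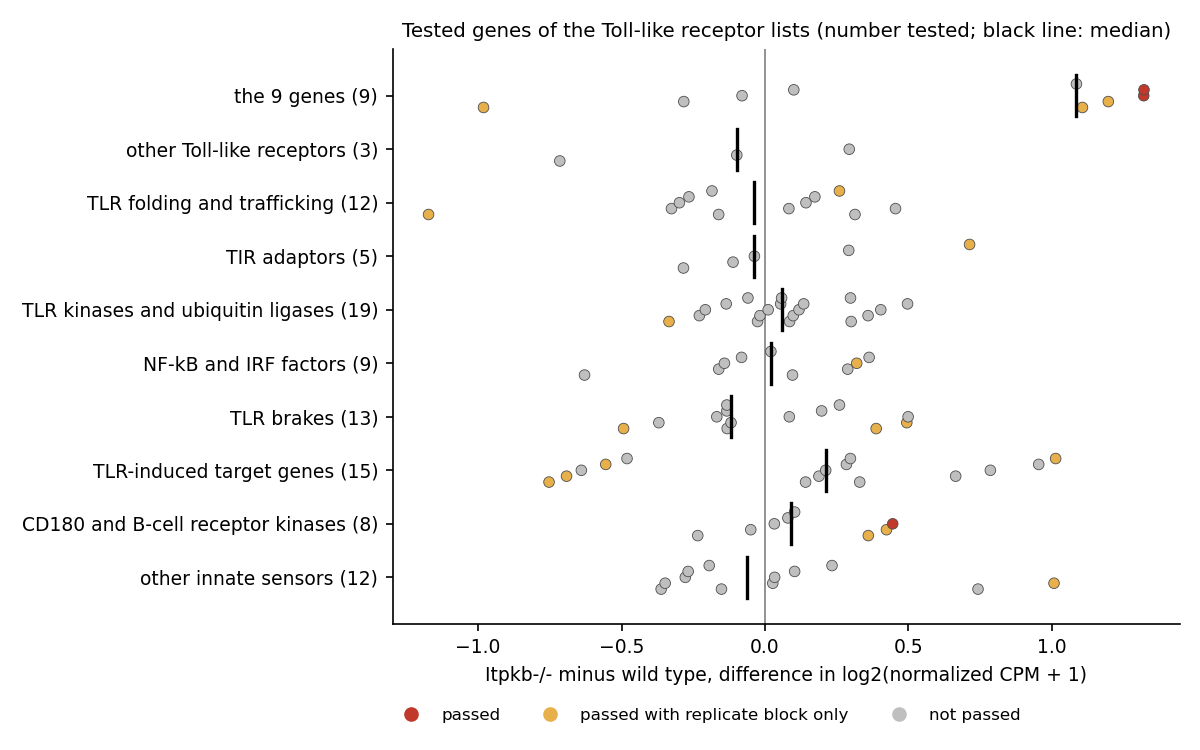
Difference between genotypes on the log2(normalized CPM + 1) scale (horizontal axis, Itpkb-/- minus wild type) for each tested gene of the 9 pathway lists and of the 9 genes, 1 row per list with the number tested, and a black line at the list's median. Coloured points mark genes that passed the test or passed it with the replicate block only, and the medians of the pathway lists lie near 0, between -0.12 and 0.21.

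Markers of other cells that carry these receptors were measured in the same libraries. The 12 B-cell markers summed to 33.2 to 40.7 normalized CPM in Itpkb-/- and 33.1 to 44.5 in wild-type libraries. Cd79b held most of that sum, ahead of Rag1 and Vpreb1, and 11 of the 12 markers were below 3 in every library. Pax5 had no read in any library. Cd79b was at 28.2 to 34.8 in all 6 libraries and overlapped between genotypes. Of the 12 markers, 2 passed the filter on low values, and neither passed by limma, by edgeR or with the block. Cd79a and Cd22, named after their values were seen, lay under the filter and were not tested. They were lower in every Itpkb-/- library than in any wild-type library, which held for 11.3% of all genes tested. The other markers under the filter are not reported here by direction. The part of B cells in the Cd180 values was not tested. The 12 dendritic cell markers summed to 133 to 171 in Itpkb-/- and 181 to 182 in wild-type libraries, carried by Tcf4, with Irf8 and Zbtb46 next and 3 of 12 at 0 in every library, Cd209a, Batf3 and Cd300c.

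Myeloid markers were less even. The 12 monocyte and macrophage markers, led by Lyz2, Ly6c2 and F13a1, summed to 314 to 981 in Itpkb-/- and 435 to 670 in wild-type libraries, none at 0 throughout. None of them passed limma's test or edgeR's, and 2 had an unadjusted p under 0.05, beside 15.5% of all genes tested. With the block 3 passed as higher, beside 9.15% of all genes. The 12 neutrophil granule markers, led by Mpo, S100a9 and S100a8, summed to 6698, 18537 and 961 in the mutant and 3845, 2696 and 741 in the wild type. None of the 12 passed limma's test or edgeR's, or had an unadjusted p under 0.05. With the block all 12 passed as higher, beside 9.15% of all genes tested. The T and NK cell markers, 11 of 12 in the table, summed to 99.3 to 292 in Itpkb-/- and 73.4 to 119 in wild-type libraries. Nkg7 carried that sum, with Lck and Cd4 next, and 2 of the 11 were at 0 throughout. Nkg7 did not pass (adjusted p = 0.153) and passed as higher with the block.

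Library 3 had the lowest granule sum of each genotype and also the lowest Ly86. Itpkb-/- library 2, with the highest granule sum, had the highest Tlr6 and Cd14 and the lowest Tlr2 and Ly96 of its genotype. The wild type ran the other way: library 1, with its highest sum, had the highest Tlr2 and Ly96, and library 3, with its lowest sum, had the highest Tlr6 and Cd14. For Cd180, Itpkb-/- libraries 1, 2 and 3 held 151, 130.4 and 124 normalized CPM at granule sums of 6698, 18537 and 961. The wild-type libraries held 44.5, 71.9 and 47.3 at sums of 3845, 2696 and 741. Without Itpkb-/- library 2, Cd180 passed limma's test (adjusted p = 0.0172) and Tlr6 did not (0.377). The part of the granule genes in these values was not tested.

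**Figure D5:**
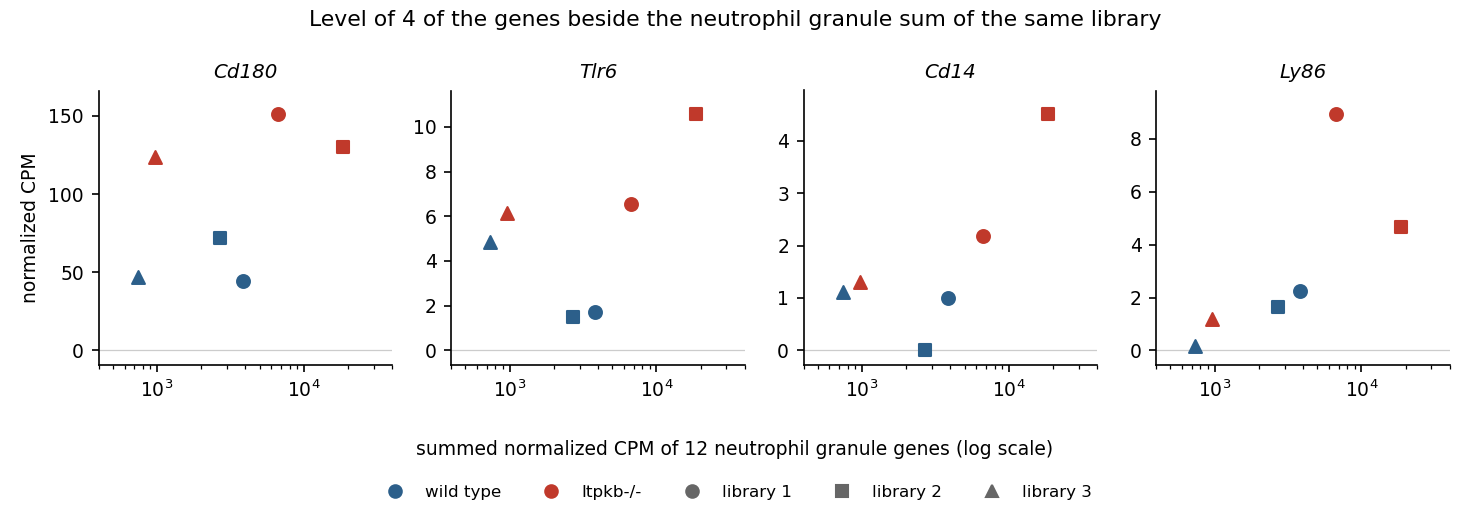
Normalized CPM of 4 of the genes (vertical axes, from 0) against the summed normalized CPM of 12 neutrophil granule genes in the same library (horizontal axis, log scale), with 6 libraries per panel. Cd180 is higher in every Itpkb-/- library than in any wild-type library, and Ly86 is lowest in library 3 of each genotype.

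Over the 6 libraries, the 5 genes most like Cd180 by Pearson's r on log2(normalized CPM + 1), among 10019 genes compared, were Tns3 (0.991), Ddx3x (0.987), Morf4l2 (0.986), Wdr90 (0.986) and Rtca (0.982). These values describe 6 libraries in 2 genotypes, which share library and depth, and carry no test. Cd180 separates the genotypes, so a high r with it favours genes that also differ between them. All 5 were higher in every Itpkb-/- library than in any wild-type library. Their calls between genotypes are therefore a description and not independent support. Of the 5, Ddx3x, an RNA helicase gene, passed the test and rose by 0.44 on the log2 scale (adjusted p = 0.102), with means of 508 ± 9.24 in the mutant and 375 ± 33.4 in the wild type. It kept this call in 2 of the 6 fits without 1 library (adjusted p up to 0.343). With the replicate block Morf4l2, Wdr90 and Rtca passed as higher too. Of all genes tested, 2.27% passed as higher in the main test and 9.15% with the block. Tns3, a gene of focal adhesions, had the highest r and a difference of only 0.18 (adjusted p = 0.545). Among the members, r with Cd180 was 0.85 for Tlr1, 0.70 for Tlr6, 0.68 for Ly86, 0.56 for Cd14 and 0.10 for Tlr7. It was -0.33 for Tlr2, -0.34 for Tlr4 and -0.90 for Ly96.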

How the data were processed

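RNA of sorted LT-HSC was amplified from 1 to 5 ng with a NuGEN kit, per the labels' protocols. Per the submitters' processing notes, reads went through CASAVA 1.8.2, cutadapt, TopHat2 2.0.8b, Partek and edgeR on build mm10; the series design text names another TopHat version, and the sources used here do not say which was run. The deposited table lists 23998 genes. Its signal is gene counts that the authors divided by 1 factor per library; 100% of values lay within 0.01 read of a whole read, which gave back 4024203 to 7470329 reads per library.

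Since the table holds no raw counts, the test was limma 3.58.1 (R 4.3.3) with a mean-variance trend, run on log2(value + 1) for the 12008 genes that reached a value of 1 in 3 or more libraries, with Benjamini-Hochberg adjustment over all of them. Genes with an adjusted p up to 0.15, the false discovery limit named in the series design, passed. Fold changes on this scale understate those of low genes. edgeR 4.0.16 and DESeq2 1.42.0 on the recovered reads, another pseudocount, other filters, CPM without the authors' factor, each library left out and a replicate block were alternatives. Libraries of a genotype are separate pools of mice, and none repeated another (chi-square per degree of freedom 6.10 to 26.7, over genes with at least 20 reads in a pair). Each genotype's libraries carry the numbers 1 to 3 in the labels, without a stated meaning. After each genotype's mean was subtracted, r between libraries of the same number was 0.296, 0.268 and 0.284, and -0.0475 or below for all other pairings. The deviations of a genotype's libraries sum to 0, so a positive r for some pairings lowers the r of the others. The numbers were taken as pairs in the block fit, a choice drawn from these same values. Calls with the block rest on that choice, and the main test does not use the pairs.

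The members and lists were chosen with earlier results of these data known. The text names the 9 members, Itpkb, in each pathway list the 2 tested genes with the smallest p and any gene that passed, the 3 highest markers of each cell type list, and the 5 genes most like Cd180 with a mean of at least 4; others are named where few genes passed with the block. Some list genes are not reported here. Positions and exon lengths are those of GENCODE M21 on mm10, promoter windows those of RefSeq on GRCm38.p6. The limma test was checked on simulated counts for 3 against 3 libraries, in which 200 genes with a mean of at least 4 CPM were altered. Shifts of 4-fold were picked up in 95.5% of cases, 2-fold shifts in 31.3% and 1.5-fold shifts in 4.48%. Of the calls made, 10.3% were false. Every simulated gene had the same set variation between libraries, which was not fitted to these data. In that setting most changes of 2-fold or less were missed. In these data Plcg2 and Ddx3x passed at log2 differences of 0.45 and 0.44, so the shares need not hold here. They also do not cover genes below 4 CPM. A gene that did not pass is not shown to be unchanged.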

Additional observations from a re-analysis of the deposited data

How the results depend on the processing

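The 661 genes called over the whole table became 2176 with the replicate block and 2166 with the block in edgeR, 343 with a mean log2 value above 4 required before testing, 139 without both libraries numbered 2, and 74 to 837 when 1 library was left out. The 2 members called became 5 with the replicate block and 5 with the block in edgeR (the same 5), and 1, Cd180, with the mean limit, by edgeR, in CPM without the authors' factor and without both libraries numbered 2. Without 1 library 1 to 2 members were called. Cd180 was called in all of these fits. The 1 pathway gene called became 16 with the replicate block, 17 with the block in edgeR, 2 with no filter (Ccl3 and Plcg2) and 2 by DESeq2 (Myd88 and Plcg2). It became 0 in CPM without that factor (limma, 17 with an unadjusted p under 0.05), 0 without both libraries numbered 2 (limma, 5), and 0 to 6 without 1 library. The edgeR fit with the block was added after seeing the data. Beyond the calls given above, the block changed no other call of a member. The sign changed for Tlr4 without Itpkb-/- library 3 (0.066) and wild-type library 1 (0.077), for Tlr7 without Itpkb-/- library 2 (-0.090), wild-type library 1 (-0.053) or both libraries numbered 2 (-0.18), and for Tlr13 without Itpkb-/- library 2 (-0.019), wild-type library 2 (-0.0038) or both libraries numbered 2 (-0.32). When 1 library was left out, the differences ran from -0.300 to 0.077 for Tlr4, from -0.090 to 0.35 for Tlr7 and from -0.019 to 0.75 for Tlr13. Fewer libraries or genes entered some of these fits, and the cause of the other changes was not tested. Depth limits Tlr1, Tlr7, Cd14 and Ly86 most, with at most 41 reads in any library.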
